A study of Sus scrofa with 9 samples.

Results

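Podocytes are the epithelial cells that wrap the capillaries of the kidney glomerulus. Their interlocking foot processes are bridged by the slit diaphragm, a cell junction built around nephrin, and together with the glomerular basement membrane they keep protein out of the urine. Mature podocytes divide little. In disease, loss of podocyte transcripts can reflect loss of the cells or a change in their state. Of 7 podocyte genes chosen by name, 5 had a probe set that the array's annotation gave a single symbol: NPHS1, PODXL, PTPRO, WT1 and TCF21. SYNPO and PLCE1 were not annotated and were not analysed here. The 5 genes belong to 12362 named genes, and 6 of the 19124 probe sets measure them, WT1 having 2.

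Expression was measured with 1 array per animal in kidney biopsies of 9 male Yorkshire pigs, 3 in each of 3 groups. Every right kidney had 30 min of warm ischemia, was flushed, and was later put back into the pig it came from (autotransplantation), while the left kidney was removed. In the No Storage group the graft was returned at once. In the SCS group it lay for 8 h in static cold storage, without flow, and in the NEVKP group it was kept for 8 h on normothermic ex vivo kidney perfusion, a circuit that supplies the organ at near body temperature. All biopsies date from post-operative day 3, so the No Storage kidneys were injured and transplanted too, and no uninjured kidney is among the 9 arrays. Values are log2 intensities per probe set, on which a difference of 1 is 2-fold. The array medians lay between 5.70 and 5.80.

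No podocyte gene passed the test between storage groups, and 4 of the 5 had lower means after either kind of storage. In limma, 0 of the 5 passed an adjusted p of 0.05 for SCS against No Storage, against 0.162% of all probe sets, and 0 of the 5 passed for NEVKP against No Storage or for NEVKP against SCS, where 0% of all probe sets did. At an unadjusted p under 0.05 the count was also 0 of 5 in each comparison, against 15.5%, 9.07% and 7.5% of all probe sets. The F test over the 3 groups called 0 of 5 at either level, against 0.00523% of probe sets adjusted and 12.8% unadjusted. The arrays of the compared groups did not overlap for 0 of the 5 in SCS against No Storage, 1 of 5 in NEVKP against No Storage and 0 of 5 in NEVKP against SCS, where 22.9%, 16.5% and 11.8% of all probe sets did not. Their 95% confidence intervals, each for a single gene and with WT1 on its brighter probe set, reached at most from -0.88 to 0.81 on the log2 scale. These intervals assume the same spread in all 3 groups, whereas the SD of WT1 was 0.17 in No Storage, 0.24 in SCS and 0.68 in NEVKP. Under that assumption each of them lay inside a 2-fold change in either direction. On the dimmer WT1 probe set the interval reached -0.95 in SCS against No Storage. In whole biopsies fewer podocytes and less RNA per podocyte cannot be told apart.

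NPHS1 encodes nephrin, the protein whose extracellular domains form the slit diaphragm (NCBI Gene ID 100622946). Its log2 values were 5.85, 5.56 and 5.62 in No Storage replicates 1, 2 and 3. They were 5.01, 5.41 and 5.64 in the SCS replicates, and 5.46, 5.05 and 5.43 in the NEVKP replicates. All 3 NEVKP arrays lay below all 3 No Storage arrays, whereas SCS replicate 3 lay inside the No Storage range. Of all probe sets, 8.57% were likewise lower without overlap in NEVKP. The mean was 5.68 ± 0.16 in No Storage, 5.35 ± 0.32 in SCS and 5.31 ± 0.23 in NEVKP (SD, n = 3 each). The log2 difference from No Storage was -0.36 in NEVKP (SE 0.19, 95% interval -0.78 to 0.05, limma adjusted p = 0.591), which corresponds to a level 1.29-fold lower. It was -0.32 in SCS (95% interval -0.74 to 0.09, limma adjusted p = 0.45). NEVKP and SCS differed by -0.04 (95% interval -0.45 to 0.37, limma adjusted p = 0.969). Both differences from No Storage use the same 3 No Storage arrays. Without SCS replicate 1 the SCS difference was the closest to 0 of those with an array omitted, at -0.15.

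PODXL encodes podocalyxin, a negatively charged sialomucin on the podocyte surface that is also made by endothelium (NCBI Gene ID 100512201). It read 8.43, 8.15 and 8.15 in the No Storage replicates, 7.76, 8.39 and 8.06 in the SCS replicates, and 8.18, 8.30 and 8.00 in the NEVKP replicates. The groups overlapped, with the highest array in No Storage and the lowest in SCS. The log2 difference from No Storage was -0.18 in SCS (95% interval -0.56 to 0.21, limma adjusted p = 0.687) and -0.09 in NEVKP (-0.47 to 0.30, limma adjusted p = 0.928). NEVKP lay 0.09 above SCS (-0.29 to 0.48, limma adjusted p = 0.913). The SCS difference from No Storage was -0.023 without SCS replicate 1 and -0.34 without SCS replicate 2.

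PTPRO, also called GLEPP1, is a receptor-type tyrosine phosphatase of the podocyte's apical membrane (NCBI Gene ID 100524563). It was the only one of the 5 whose mean was higher after storage than without. Its values were 7.10, 6.56 and 6.66 in No Storage, 6.78, 7.08 and 6.97 in SCS, and 7.54, 6.53 and 7.09 in NEVKP, each for replicates 1, 2 and 3. The NEVKP arrays spanned the widest range and held both the highest and the lowest of the 9 values. The log2 difference from No Storage was 0.17 in SCS (95% interval -0.37 to 0.70, limma adjusted p = 0.806) and 0.28 in NEVKP (-0.26 to 0.81, limma adjusted p = 0.78). The SD within NEVKP was 0.51, larger than either difference. Without NEVKP replicate 1 the NEVKP difference was 0.03.

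WT1 is a zinc finger transcription factor that stays on in mature podocytes and activates NPHS1 and PODXL; mesothelium expresses it as well (NCBI Gene ID 397338). On its brighter probe set it read 6.44, 6.17 and 6.13 in No Storage, 5.81, 6.20 and 6.25 in SCS, and 6.77, 5.48 and 5.76 in NEVKP. The NEVKP kidneys differed from each other by up to 1.29 on the log2 scale, more than the 0.85 between the highest and the lowest of all 9 NPHS1 values. Among all named genes, 93.9% had a smaller SD within groups than WT1. The log2 difference from No Storage was -0.16 in SCS (95% interval -0.80 to 0.48, limma adjusted p = 0.852) and -0.24 in NEVKP (-0.88 to 0.40, limma adjusted p = 0.856). Between NEVKP and SCS it was -0.08 (-0.72 to 0.56, limma adjusted p = 0.957). Without NEVKP replicate 2 the NEVKP difference from No Storage was 0.03, and without NEVKP replicate 1 it was -0.62. The SCS difference was -0.019 without SCS replicate 1 and -0.24 without SCS replicate 3.

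The dimmer WT1 probe set read 6.13, 5.69 and 5.88 in No Storage, 5.08, 5.63 and 6.07 in SCS, and 6.26, 5.24 and 5.58 in NEVKP. The order of the NEVKP kidneys, with replicate 1 highest and replicate 2 lowest, was alike on both. Over the 9 arrays the probe sets correlated with a Pearson r of 0.88 (exact permutation p = 0.00176, two-sided) and a Spearman rho of 0.883 (exact permutation p = 0.00308). Without the 2 arrays farthest from the median r was 0.82. The wide spread of WT1 among NEVKP kidneys therefore appeared on both probe sets. It was not particular to NEVKP on the dimmer one, where the SCS kidneys spanned 0.99 and the NEVKP kidneys 1.03. On the brighter one the SCS kidneys spanned 0.45.

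TCF21 encodes a basic helix-loop-helix transcription factor of podocytes and of kidney stroma (NCBI Gene ID 100152962). It read 7.73, 7.08 and 7.47 in No Storage, 7.28, 7.55 and 7.25 in SCS, and 7.49, 7.49 and 7.22 in NEVKP. The No Storage kidneys held both the highest and the lowest value, so that the stored groups lay inside the No Storage range. The group means were 7.43 ± 0.33, 7.36 ± 0.16 and 7.40 ± 0.16 (SD, n = 3 each). The log2 difference from No Storage was -0.07 in SCS (95% interval -0.46 to 0.33, limma adjusted p = 0.904) and -0.03 in NEVKP (-0.42 to 0.37, limma adjusted p = 0.983).

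**Figure D1:**
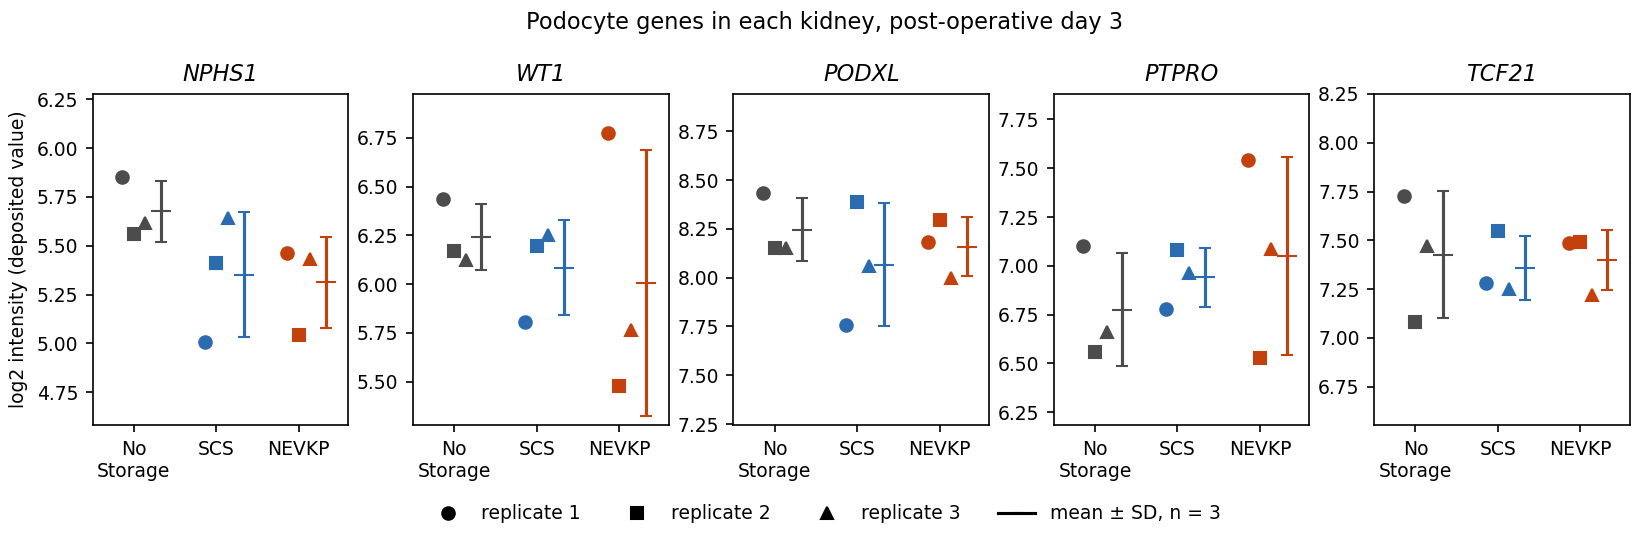
Deposited log2 intensity of the 5 podocyte genes in each of the 9 kidneys, 1 panel per gene, with equal axis spans. Points are single arrays, shaped by replicate number, and bars are the group mean ± SD (n = 3); the NEVKP arrays of NPHS1 lie below all No Storage arrays, and WT1 and PTPRO spread most within NEVKP.

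**Figure D2:**
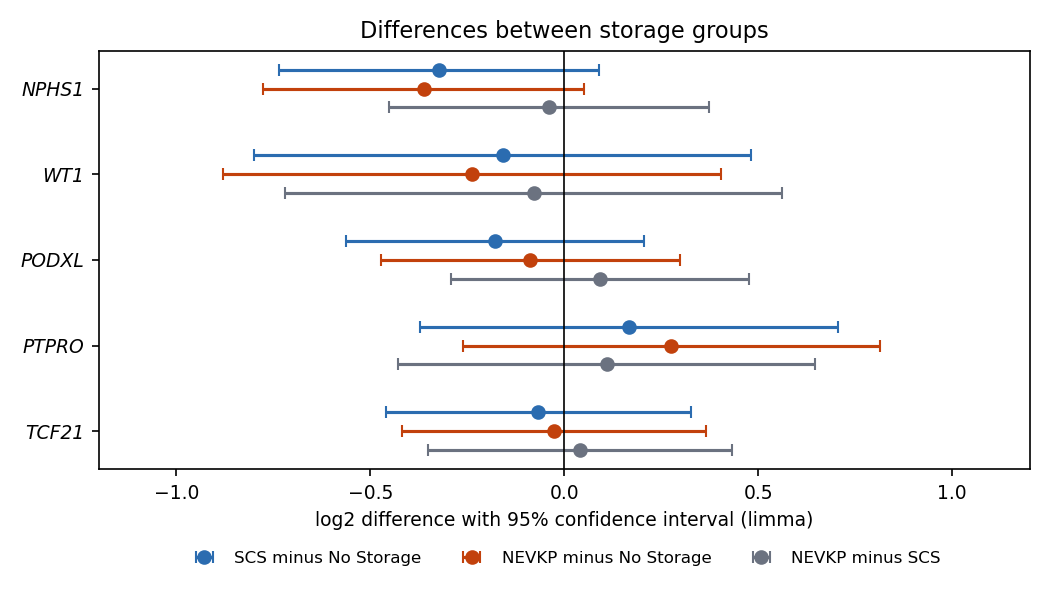
Log2 difference between group means for each of the 5 podocyte genes (points) with its 95% confidence interval from limma (bars), for the 3 comparisons. WT1 is shown by its brighter probe set. Every interval includes 0 and none extends past -0.88 or 0.81.

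Taking the 5 genes side by side, 4 had a lower mean and 1 a higher mean in SCS than in No Storage, with a median log2 difference of -0.16. In NEVKP against No Storage the split was again 4 lower and 1 higher, with a median of -0.09, and the comparisons share their No Storage arrays. With an array omitted the SCS median ran from -0.23 to -0.023 and the NEVKP median from -0.20 to 0.0055. Without No Storage replicate 1 the NEVKP split was 2 lower and 3 higher. The median over all probe sets was 0.01 and -0.01 in these comparisons. Between NEVKP and SCS, 3 means were higher and 2 lower in NEVKP, with a median of 0.04 (-0.11 to 0.13 with an array omitted) against -0.02 over all probe sets. Group membership accounted for 39.5% of the variance of NPHS1 over the 9 arrays, 14.0% of PODXL, 13.7% of PTPRO, 7.41% of WT1 and 2.10% of TCF21. Most of the variation in each gene was thus between kidneys of one group. Groups this small take up part of the variance even where no difference exists. For NPHS1, with the largest share, the limma F test had an unadjusted p of 0.15.

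Single kidneys were high or low in several of the genes together. No Storage replicate 1 had the highest value of 3 of the 5 genes, NPHS1, PODXL and TCF21, and NEVKP replicate 1 that of the other 2, WT1 and PTPRO. In both of these kidneys 5 of 5 genes lay above their own mean over all arrays. SCS replicate 1 had 0 of 5 above the mean and the lowest value of NPHS1 and PODXL. NEVKP replicate 2 had the lowest of WT1 and PTPRO, but 2 of 5, PODXL and TCF21, lay above the mean there. Averaged over the 5 genes, the log2 distance from the No Storage level was 0.24 in No Storage replicate 1, 0.22 in NEVKP replicate 1, -0.35 in SCS replicate 1 and -0.31 in NEVKP replicate 2. It ranged from -0.17 to 0.24 in No Storage, from -0.35 to 0.05 in SCS and from -0.31 to 0.22 in NEVKP, so the groups overlapped.

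All 10 pairs of the 5 genes correlated positively over the 9 arrays, with a median Pearson r of 0.33. With the group means subtracted all 10 stayed positive and the median was 0.39. WT1 and PTPRO had the highest value, with r = 0.70 (exact permutation p = 0.0363, two-sided) and rho = 0.667 (exact permutation p = 0.0589). PODXL and TCF21 followed with r = 0.69 (exact permutation p = 0.0365) and rho = 0.783 (exact permutation p = 0.0172). NPHS1 and WT1 had r = 0.67 (exact permutation p = 0.0469) and rho = 0.617 (exact permutation p = 0.0857). Adjusted over the 10 pairs by the Benjamini-Hochberg method, 0 passed, the smallest exact permutation p being 0.156 for Pearson and 0.172 for Spearman.

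For WT1 with PTPRO r was 0.12 without NEVKP replicates 1 and 2, the arrays farthest from the WT1 median. With a single array omitted it stayed between 0.44 and 0.82, and with the group means subtracted it was 0.89. For NPHS1 with WT1 r fell to 0.23 without SCS replicate 1 and NEVKP replicate 2. PODXL and TCF21 kept r = 0.69 without No Storage replicate 1 and SCS replicate 1. The other 7 pairs had r from 0.14 for PODXL with PTPRO to 0.46 for NPHS1 with PODXL. Without the 2 arrays farthest from the median, NPHS1 with PTPRO (-0.22) and PODXL with PTPRO (-0.10) turned negative. With the group means subtracted these pairs had r of 0.74 and 0.26. Over the omission of each array in turn 9 of the 10 pairs kept a positive r; NPHS1 with TCF21 dropped to -0.20 without No Storage replicate 1.

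**Figure D3:**
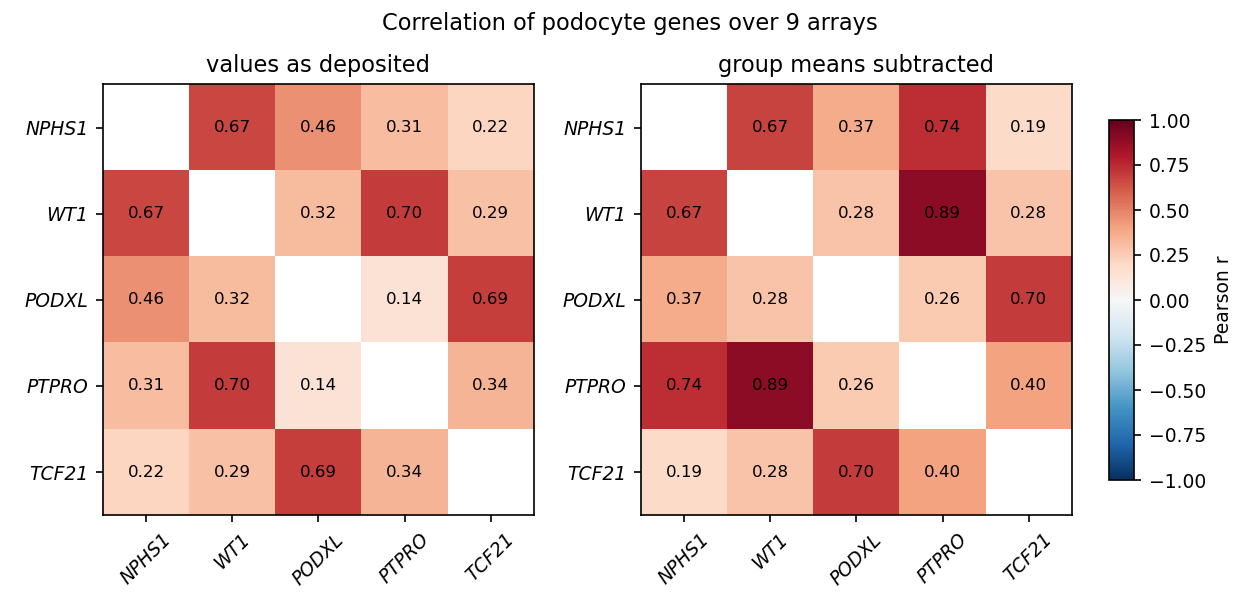
Pearson r over 9 arrays for each pair of the 5 podocyte genes, from the deposited values (left) and after subtraction of each group's mean (right), on a colour scale from -1 to 1. All 10 pairs are positive in both, from 0.14 to 0.70 on the left.

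The named genes with the most similar course over the 9 arrays were ranked by Pearson r among 10973 genes, which is a description with no test. For NPHS1 these were CDNF (r = 0.98), which encodes a neurotrophic factor, INSRR (0.95), an insulin receptor-related kinase, and PDE3B (0.94), a cyclic nucleotide phosphodiesterase. OMD (0.95), ZHX1 (0.95) and CPA1 (0.92) were closest to WT1. WDR27 (0.92), CTNND2 (0.89) and BBS1 (0.88) were closest to PODXL. MIR450A (0.94), ANKRD44 (0.91) and RAD51AP2 (0.89) were closest to PTPRO, and NPTN (0.91), CGN (0.89) and TWIST1 (0.89) to TCF21. CPA1, MIR450A and RAD51AP2 had mean log2 values of 3.38, 1.83 and 2.72, under the 3.92 that bounds the dimmest 25% of probe sets.

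Other genes with a role in the filtration barrier were taken from 5 lists by role, with 59 measured genes beyond the 5 above. The lists are not specific to podocytes, since FYN, IQGAP1 and ITGA3, among others, are also expressed in other cell types. Counts over the 59 therefore do not describe podocytes alone. In limma 0 of the 59 passed an adjusted p of 0.05 in any comparison. At an unadjusted p under 0.05 there were 12 higher and 3 lower in SCS than in No Storage, 25.4% of the 59 against 15.5% of all probe sets. In NEVKP against No Storage there were 6 higher and 1 lower, 11.9% against 9.07%, and in NEVKP against SCS 3 higher and 3 lower, 10.2% against 7.5%. These shares cover unlike sets. The 59 are named genes on their probe set of highest mean, whereas all probe sets include 5444 without a symbol.

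Of 11 measured genes of the slit diaphragm and its signalling, 4 were higher and 0 lower in SCS at an unadjusted p under 0.05. In NEVKP 3 were higher and 1, KIRREL2, was lower than in No Storage, and 0 passed adjusted in either group. Over all probe sets the unadjusted shares were 15.5% in SCS and 9.07% in NEVKP, in either direction. The list's median log2 difference was 0.08 in SCS and 0.03 in NEVKP. KIRREL, a nephrin-like protein of the junction also known as NEPH1, had 7.53 ± 0.16 in No Storage, 8.26 ± 0.24 in SCS and 8.06 ± 0.36 in NEVKP (SD, n = 3 each). Its difference from No Storage was 0.73 in SCS (SE 0.20, limma adjusted p = 0.127) and 0.52 in NEVKP (limma adjusted p = 0.491). It was higher without overlap in both, as were 11.3% of all probe sets in SCS and 7.94% in NEVKP. KIRREL2, a paralogue, had a mean of 4.01 in No Storage, 3.83 in SCS and 3.59 in NEVKP, a difference of -0.43 in NEVKP (limma adjusted p = 0.412), and both stored means lay under the 3.92 that bounds the dimmest 25% of probe sets. CD2AP, an adaptor that binds nephrin, differed by 0.45 in SCS (limma adjusted p = 0.222) and 0.26 in NEVKP (limma adjusted p = 0.66). The kinase gene FYN, whose product phosphorylates nephrin, differed by 0.50 and 0.43 (limma adjusted p = 0.139 and 0.444), and the scaffold gene IQGAP1 by 0.49 and 0.37 (limma adjusted p = 0.107 and 0.444). FYN and IQGAP1 are expressed in many cell types.

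Among 15 genes of the podocyte actin cytoskeleton, 2 were higher and 2 lower in SCS at an unadjusted p under 0.05, and 0 of 15 in NEVKP. Over all probe sets the shares were 15.5% and 9.07%, in either direction. The median log2 difference was 0.01 in SCS and -0.03 in NEVKP. CLIC5, which links ezrin and podocalyxin to actin in foot processes, had 7.41 ± 0.22 in No Storage, 6.80 ± 0.30 in SCS and 7.03 ± 0.24 in NEVKP. It differed by -0.61 in SCS, without overlap as for 11.6% of all probe sets lower there (limma adjusted p = 0.163), and -0.38 in NEVKP (limma adjusted p = 0.579). ARHGAP24, a GTPase-activating protein for Rac, differed by -0.41 in SCS (limma adjusted p = 0.215) and by -0.02 in NEVKP (limma adjusted p = 0.981). ANLN, an actin-binding protein of cell division, differed by 0.75 in SCS (limma adjusted p = 0.161) and the myosin gene MYH9 by 0.23 (limma adjusted p = 0.503). ACTN4, the actin crosslinker alpha-actinin-4, differed by 0.22 in SCS (limma adjusted p = 0.588) and -0.09 in NEVKP (limma adjusted p = 0.919).

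Of 5 measured genes in the list of podocyte transcription factors, 0 had an unadjusted p under 0.05 in any comparison. Over all probe sets the share was 15.5% in SCS and 9.07% in NEVKP against No Storage, and 7.5% in NEVKP against SCS. LMX1B, a LIM homeodomain factor needed for podocyte differentiation, differed by -0.20 in SCS (limma adjusted p = 0.687) and -0.31 in NEVKP (limma adjusted p = 0.658). DACH1 differed by 0.27 and -0.09, FOXC2 by 0.13 and 0.18, and the cofactor gene LDB1 by 0.11 and 0.18, with limma adjusted p from 0.477 to 0.924.

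The 9 measured genes of the glomerular basement membrane and podocyte adhesion had a median log2 difference of 0.27 in SCS and 0.16 in NEVKP. ITGA3, the integrin chain that with beta-1 holds podocytes on laminin and that tubule cells also carry, read 8.33 ± 0.29 in No Storage, 9.48 ± 0.35 in SCS and 8.24 ± 0.31 in NEVKP. Its difference was 1.15 for SCS against No Storage (SE 0.22, limma adjusted p = 0.0646), -0.10 for NEVKP against No Storage (limma adjusted p = 0.939) and -1.25 for NEVKP against SCS (limma adjusted p = 0.338). The SCS arrays lay above those of both other groups. Of all probe sets, 11.3% were higher without overlap in SCS than in No Storage, and 6.78% were lower without overlap in NEVKP than in SCS. HSPG2 (perlecan) differed by 0.81 in SCS (limma adjusted p = 0.196), and the adhesion genes TLN1 and VCL by 0.40 and 0.31 (limma adjusted p = 0.339 and 0.327). COL4A3, a chain of the mature basement membrane's type IV collagen that podocytes make, differed by -0.46 in SCS and -0.45 in NEVKP (limma adjusted p = 0.438 and 0.647). The other measured chain of this collagen, COL4A5, named after its values were seen, differed by -0.04 and 0.30 (limma adjusted p = 0.957 and 0.685).

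Of 19 surface and secreted proteins, 4 were higher and 1 lower in SCS, and 3 higher and 0 lower in NEVKP, at an unadjusted p under 0.05. Over all probe sets the shares were 15.5% and 9.07%, in either direction. The median log2 difference was -0.04 in SCS and -0.01 in NEVKP, with 8 and 9 of the 19 means higher than in No Storage. PLAUR, the urokinase receptor, read 6.43 ± 0.37 in No Storage, 7.57 ± 0.23 in SCS and 7.44 ± 0.45 in NEVKP. It differed by 1.15 in SCS (SE 0.25, limma adjusted p = 0.0833) and 1.01 in NEVKP (limma adjusted p = 0.384), with no overlap in either. Higher values without overlap were found for 11.3% of all probe sets in SCS and 7.94% in NEVKP. CD80, a costimulatory ligand of antigen-presenting cells, differed by 0.38 and 0.91 (limma adjusted p = 0.551 and 0.406), the protease gene HTRA1 by 0.67 and 0.57 (0.165 and 0.472), and the matricellular gene CTGF by 0.70 and 0.41 (0.196 and 0.645). VEGFA, which podocytes secrete toward the glomerular endothelium, differed by 0.02 and -0.05 (limma adjusted p = 0.971 and 0.959). The gene lower in SCS was ANGPT1, a vascular growth factor named after its values were seen. It differed by -0.78 in SCS without overlap, as for 11.6% of all probe sets lower there (limma adjusted p = 0.32). In NEVKP it differed by 0.19 (limma adjusted p = 0.917).

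**Figure D4:**
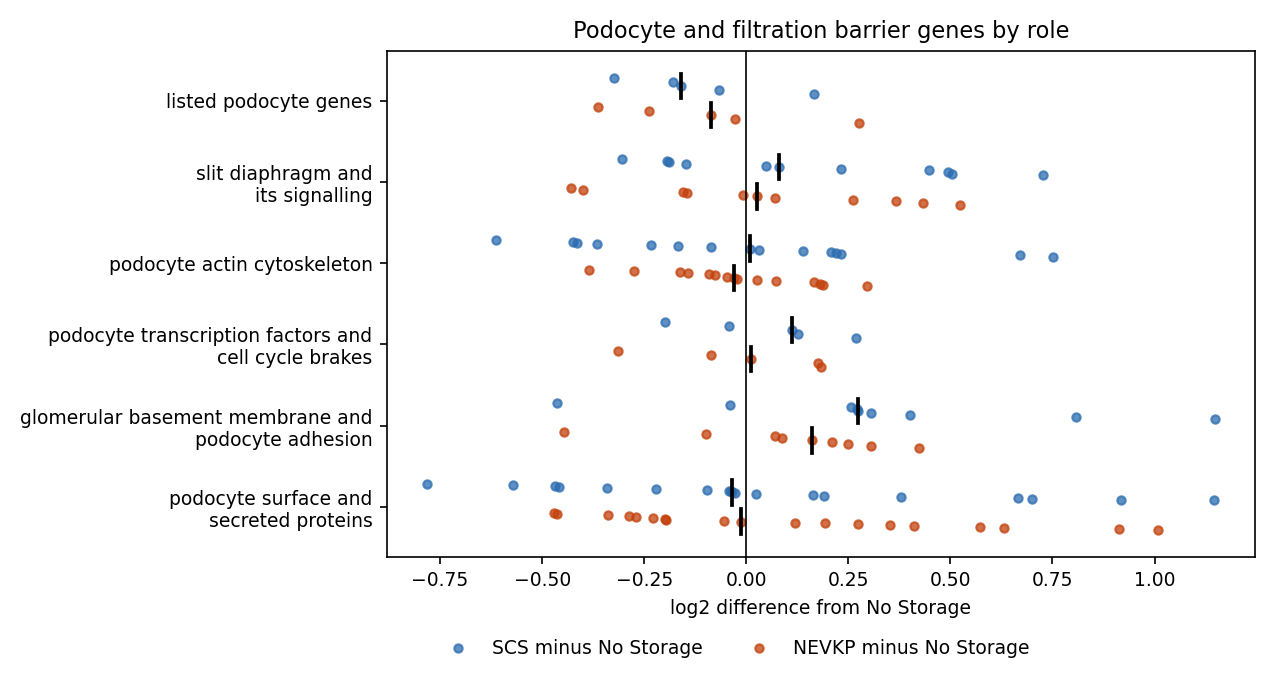
Log2 difference from No Storage of the 5 listed podocyte genes and of the 59 other genes in 5 lists by role, for SCS and NEVKP. Each point is a gene and each vertical bar the median of its list, the highest being 0.27 for basement membrane and adhesion in SCS.

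Marker lists of the other cell types in a kidney biopsy were read beside these values, as the mean log2 level of each list's measured genes per array. Of the other glomerular cells, the endothelial list (11 of 17 measured) ranged from 7.08 to 7.24 in No Storage, 6.97 to 7.30 in SCS and 6.78 to 7.46 in NEVKP. The mesangial list (5 of 10) ranged from 7.86 to 8.21, 7.84 to 8.32 and 7.80 to 8.29. The mean of CDH6 and VCAM1, the 2 of 7 parietal epithelium markers measured, ranged from 9.31 to 9.43, 9.93 to 10.39 and 9.71 to 10.06. Thus the endothelial and mesangial levels overlapped between groups. In SCS both CDH6 (0.65) and VCAM1 (0.98) lay above No Storage without overlap, whereas in NEVKP VCAM1 did (1.18) and CDH6 overlapped No Storage (-0.11). Higher values without overlap were found for 11.3% of all probe sets in SCS and 7.94% in NEVKP. Whether these 2 genes track parietal epithelium in whole biopsies was not tested.

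The proximal tubule list (10 of 15) ranged from 10.76 to 10.85 in No Storage, 9.89 to 10.46 in SCS and 9.82 to 10.71 in NEVKP. The smooth muscle and fibroblast list (8 of 9) ranged from 9.50 to 9.62, 10.12 to 10.39 and 10.05 to 10.50. The macrophage list (8 of 10) ranged from 6.16 to 6.25, 6.41 to 6.73 and 6.55 to 6.85. The mesothelium and urothelium list (6 of 9, without MSLN) ranged from 5.18 to 5.37, 5.46 to 5.66 and 5.25 to 5.44. The thick ascending limb list (6 of 9) ranged from 9.74 to 10.13, 8.52 to 9.48 and 9.82 to 9.92, and the collecting duct list (10 of 12) from 7.85 to 7.91, 6.95 to 7.47 and 7.43 to 7.51. NPHS1 was lower without overlap in NEVKP than in No Storage. The proximal tubule and collecting duct levels were also lower without overlap there. The smooth muscle and fibroblast list, the macrophage list and the mean of CDH6 and VCAM1 were higher without overlap, although CDH6 alone overlapped. The remaining lists overlapped between these groups. The part of any list in the NPHS1 values was not tested.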

How the data were processed

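The authors deposited log2 intensities per probe set for 9 arrays. RMA (background correction, scaling between arrays and a summary per probe set) and limma 3.34.14 are named in the submitters' processing notes. Neither the array model nor any filter is given in the sources used here. Each array is 1 pig kidney. Of 19124 probe sets, 13323 had 1 gene symbol in the array's annotation, 357 several and 5444 none; a RefSeq table of Sscrofa11.1 gave the same symbol for 12918. The probe set of highest mean stood for a gene.

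All probe sets were fitted on the 9 arrays (lmFit, contrasts.fit and eBayes of limma 3.58.1, under R 4.3.3) with group as the only factor. Benjamini-Hochberg adjustment of p values ran over all probe sets within a comparison, with a threshold of 0.05. Correlations used Python 3.11.15 and exact permutation of the arrays. The steps were tested on simulated data. The number of arrays limits the precision.

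The podocyte genes, lists and tests were chosen with earlier results of these data known. All listed genes were named; from each role list came up to 4 genes by smallest F test p plus CD2AP, ACTN4, COL4A3 and VEGFA. Alternatives were the replicate block, array weights, a prior both trended and robust, omission of dim probe sets, centred arrays, averaging the probe sets of a gene, fits on 2 groups and omission of each array. Omission of both arrays of lowest weight was chosen after seeing the data.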

Additional observations from a re-analysis of the deposited data

How the results depend on the processing

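Under every alternative run for it, each pairwise comparison had 0 of the 5 podocyte genes past the threshold. So did the F test, which was not run with averaged probe sets or on 2 groups alone. The lowest limma adjusted p that any of them reached under an alternative was 0.25, for WT1 in NEVKP against No Storage without NEVKP replicate 1. The unadjusted limma p fell under 0.05 in some alternatives and was 0.0082 for WT1 in that one. Against No Storage, NPHS1 reached 0.047 in NEVKP without SCS replicate 1 and 0.037 in SCS without SCS replicate 3. In NEVKP it also reached 0.048 with centred arrays and 0.04997 in the fit on the 2 compared groups. Neither of these omitted an array of the compared groups. PTPRO reached 0.027 in NEVKP against No Storage without NEVKP replicate 2, and 0.031 without both arrays of lowest weight. For WT1 in NEVKP against SCS the unadjusted limma p was 0.034 without NEVKP replicate 1. The NPHS1 differences from No Storage stayed negative, from -0.47 to -0.15 in SCS and from -0.44 to -0.23 in NEVKP with an array omitted, and those of PTPRO stayed positive, from 0.06 to 0.33 and from 0.03 to 0.54. With an array omitted the sign turned for TCF21 in SCS (-0.24 to 0.083) and, in NEVKP against No Storage, for WT1 (-0.62 to 0.025), PODXL (-0.16 to 0.0055) and TCF21 (-0.20 to 0.12). In NEVKP against SCS it turned for all 5, in the ranges -0.21 to 0.10 for NPHS1, -0.46 to 0.18 for WT1, -0.064 to 0.25 for PODXL, -0.14 to 0.37 for PTPRO and -0.014 to 0.13 for TCF21. Array weights turned NPHS1 (0.0025) and WT1 (0.12) in NEVKP against SCS, and the mean of both WT1 probe sets turned WT1 (0.0089). Without SCS replicate 2 and NEVKP replicate 2, which had the lowest array weights, the values were 0.12 for NPHS1 and 0.24 for WT1 in NEVKP against SCS, and 0.025 for WT1 in NEVKP against No Storage. The cause was not tested.

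The 31 probe sets past the threshold in SCS against No Storage, none of them a podocyte gene, became 83 with a trended and robust prior, 93 with array weights, 82 without the dimmest 25%, 49 with centred arrays, 0 without both arrays of lowest weight and 0 to 158 with an array omitted. In NEVKP against SCS array weights gave 1, and omission of an array 0 to 1. With the replicate number as a block the count in SCS was 27 and the podocyte count 0. No sign was seen that the numbers pair the kidneys. The deviations of same-numbered arrays correlated from -0.14 to 0.13 and exceeded 0.1 in 1 of 9 pairs. Those of differently numbered arrays correlated from -0.15 to 0.17. With 3 arrays per group this check cannot settle whether the kidneys were paired. The median r among the podocyte genes ranged from 0.24 to 0.51 with an array omitted. The 95% intervals assume the same spread in every group. With 3 kidneys per group, they leave room for log2 differences as low as -0.88 or as high as 0.81. On the dimmer WT1 probe set they leave room down to -0.95.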
